A study of Homo sapiens with 6 samples.

Results

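Interferon-stimulated genes (ISGs) are the transcripts that a cell raises after interferon binds its receptors. Their levels were examined here in RNA-seq of the human bladder cancer line 253J, made to find transcripts that depend on FTO, the demethylase that removes m6A marks from RNA. The 49 ISGs were taken by name from a list of antiviral effectors, their regulators and other induced genes. This list was chosen with earlier results of these data known. Each of the 49 symbols matched exactly 1 of the 60483 gene IDs in the deposited count tables. The siFTO group held 3 libraries, called siFTO 4, 5 and 6 after their replicate numbers, from cells in which FTO was knocked down. The control group held 3 libraries, called control 1, 2 and 3, and the sources used here mention no interferon or other agent in either group. The labels name siRNA for FTO and control siRNA, whereas the methods of the paper describe shRNA vectors, and no source says whether the replicates were separate cultures, so the p-values cover the spread between libraries and this may be technical.

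Interferons are secreted proteins that signal through receptors at the cell surface. Type I and type III interferons activate the kinases JAK1 and TYK2, which phosphorylate STAT2 among others. STAT2 joins IRF9 in the complex ISGF3, which binds a DNA element, the interferon-stimulated response element (ISRE), in the promoters of ISGs. Type II interferon acts through JAK1 and JAK2 and another element, the gamma-activated site (GAS). The proteins encoded by ISGs bind viral RNA, block viral entry or release, modify proteins with the ubiquitin-like protein ISG15, or feed back on the pathway.

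The letters of the ISRE core stood in most of the ISG promoters that could be searched. RefSeq promoters of build GRCh38.p14, each reaching from 250 bases before to 50 bases after a start site, were on hand for 41 of the 49 ISGs. None was on hand for IFIT2, IFITM2, MX2, IRF7, TRIM22, USP18, GBP2 and LY6E. The letters GAAANNGAAA, read on both strands, occurred in a promoter of 28 of the 41 ISGs (68.3%), against 1195 of 27305 genes overall (4.38%). By promoter window the shares were 58.9% of 56 ISG windows and 3.57% of 35116 windows overall. The letters TTCNNNGAA of the GAS, which read the same on both strands and can overlap the ISRE letters, occurred in 12 of the 41 ISGs (29.3%) and in 9.38% of all genes, or in 7.66% of all windows. A match of letters is a description of the sequence, not of a bound site. The following windows of 50 bases are shown because they carry the ISRE letters of ISGs that behaved differently in the data described next. They are written 5′ to 3′ along the strand of the gene, with a match in capitals.
IFI27, chr14:94110608-94110657, plus strand: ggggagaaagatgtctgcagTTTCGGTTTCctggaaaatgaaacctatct
IFI6, chr1:27672278-27672327, minus strand: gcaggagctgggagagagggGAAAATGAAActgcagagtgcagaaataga
BST2, chr19:17405725-17405774, minus strand: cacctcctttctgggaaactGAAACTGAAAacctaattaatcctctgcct
IFI44, chr1:78649751-78649800, plus strand: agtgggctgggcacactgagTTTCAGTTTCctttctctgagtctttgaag
HERC5, chr4:88457025-88457074, plus strand: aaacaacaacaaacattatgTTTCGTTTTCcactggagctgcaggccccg
IFIT3, chr10:89332458-89332507, plus strand: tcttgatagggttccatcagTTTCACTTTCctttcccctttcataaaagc
IFIT1, chr10:89392500-89392549, plus strand: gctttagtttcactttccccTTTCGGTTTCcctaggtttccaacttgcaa
ISG15, chr1:1013370-1013419, plus strand: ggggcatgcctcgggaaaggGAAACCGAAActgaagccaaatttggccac
MX1, chr21:41431834-41431883, plus strand: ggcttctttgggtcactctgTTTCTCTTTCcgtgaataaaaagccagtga
In the first 3 of these genes the transcript was high in all 3 siFTO libraries, in the next 3 it was much lower in siFTO 6 than in siFTO 4 and 5, IFIT1 and ISG15 did not pass the test, and MX1 was lower in siFTO cells.

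**Figure D1:**
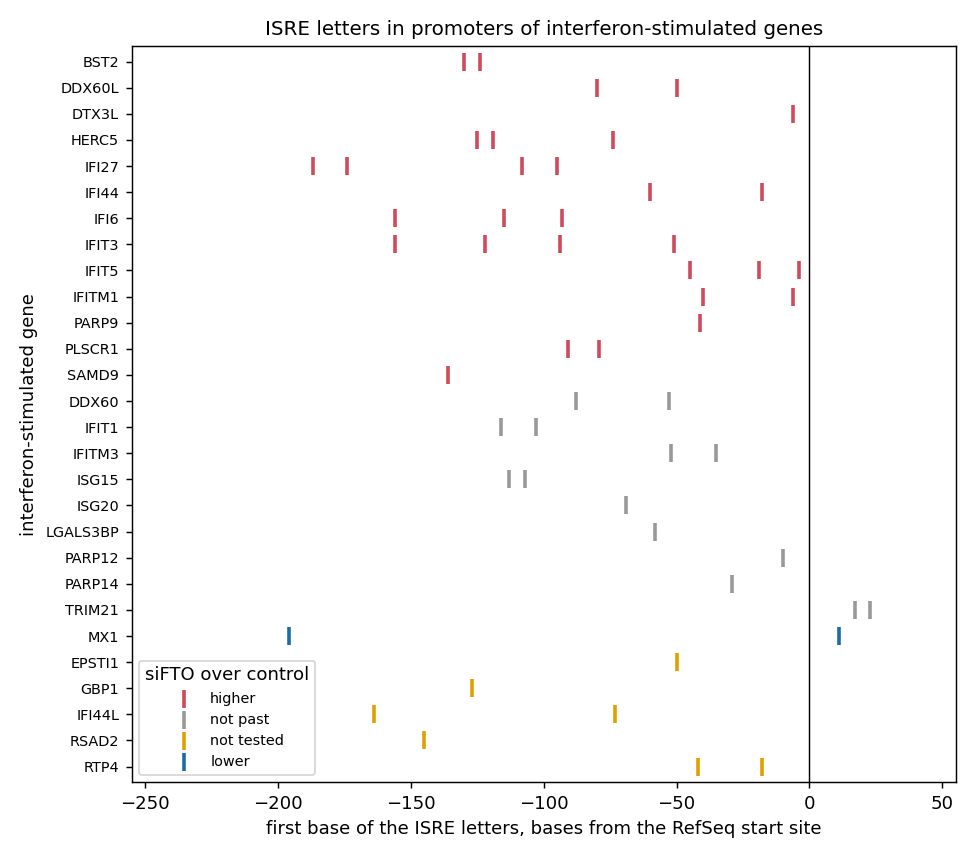
Position of each ISRE match (GAAANNGAAA on either strand) in the promoters of the 28 ISGs that held one, as the distance in bases of its first base from the RefSeq start site, with the gene's start at 0. Colours give the result of the siFTO against control comparison, and matches stand in promoters of 13 higher, 1 lower, 9 not past the threshold and 5 not tested ISGs. A gene with several start sites is drawn on 1 line, where the same letters can stand at more than 1 distance.

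Total counts were 13162731 to 15709975 in the siFTO libraries and 10991789 to 19891269 in the controls. FTO itself had 20.2, 20.7 and 15.8 CPM (the count divided by the TMM-scaled library size of edgeR, times 1e6) in siFTO 4, 5 and 6, against 31.8, 21.4 and 31.2 CPM in control 1, 2 and 3. The log2 fold change was -0.57 (standard error [SE] 0.16), the quasi-likelihood test of edgeR gave an adjusted p of 0.0209 after Benjamini-Hochberg adjustment over the 14965 genes tested, and the adjusted p was 0.107 without control 1, 0.113 without control 3 and 0.0576 on library totals alone. Libraries siFTO 4 and 5 stood apart from the other 4, and whether they hold the same cells as these was not tested, so in values that rest on them the knockdown and such a difference cannot be told apart. The 10 mesenchymal markers summed to 1879 and 2252 CPM of the library total in siFTO 4 and 5, to 25.1 CPM in siFTO 6 and to 13.2 to 15.3 CPM in the controls. Among them VIM, the intermediate filament vimentin, was at 663.1 and 747.7 CPM in siFTO 4 and 5, at 0.304 CPM in siFTO 6 and at 0.553 to 1.0 CPM in the controls. Fibroblast markers (11 genes) summed to 337.9, 423.9 and 25.5 CPM in siFTO 4, 5 and 6 and to 15.4 to 15.9 CPM in the controls, led in siFTO 4 and 5 by COL1A1 (157.7 and 202.0 CPM), COL1A2 (125.9 and 160.1 CPM) and FBN1 (39.4 and 47.2 CPM), while POSTN was at 0 throughout and COL3A1 at no more than 0.148 CPM. Leukocyte markers (13 genes) summed to 77.7, 90.4 and 7.52 CPM in siFTO 4, 5 and 6 and to 4.37 to 5.91 CPM in the controls, led in siFTO 4 and 5 by CD74 (63.7 and 77.1 CPM) and CSF1R (7.97 and 7.83 CPM), which were at no more than 0.380 CPM in the other libraries, with CD3D, CD3E, MS4A1 and FCGR3A at 0 in all 6 libraries and PTPRC at no more than 0.0738 CPM. Endothelial markers (6 genes) summed to at most 2.95 CPM in any library. All 7 epithelial markers were above 10 CPM in all 6 libraries. Of the 11 urothelial markers 3 in each siFTO library and 2 in each control reached 10 CPM, UPK1B was at 0 throughout, and 5 of 6 intestinal markers reached 10 CPM in every library. Many results are therefore also given for siFTO 6 alone. The part of these other differences in the results for ISGs was not tested.

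ISGs were raised more often than lowered in siFTO cells, but most of those measured did not pass the test or were left out of it by the filter on counts. Of the 49 ISGs 40 had enough reads in enough libraries to be tested. Of these 17 were higher in siFTO cells (42.5%) and 3 were lower (7.5%), at an adjusted p under 0.05 by edgeR. Over all genes tested 19.5% were higher and 17.9% were lower. The remaining 20 did not pass the threshold. The higher ISGs IFI44, HERC5 and TRIM22 had under 10 reads in every control and entered the test only through the siFTO libraries. SAMD9 and BST2 also entered through them. SAMD9 had 9, 5 and 10 reads and BST2 had 7, 15 and 10 reads in control 1, 2 and 3. With at least 10 counts required in every library these genes were not tested, and 12 of 33 ISGs were higher and 3 were lower. In that fit 20.6% of all genes were higher and 19.5% were lower. The median log2 fold change of the 40 was 0.31, beside 0.0057 over all genes tested. As the list was chosen with earlier results of these data known, these contrasts with all genes are a description. Relative to the mean log2 CPM of the controls, the median ISG was at 0.35 in siFTO 4, 0.22 in siFTO 5 and 0.33 in siFTO 6. The count of higher ISGs was 10 without control 2, 11 without control 3 and 23 of 45 without siFTO 6, beside 9.75%, 11.3% and 23.6% of all genes tested in the same fits. The count of lower ISGs was 1 without control 2 or control 3, 0 without siFTO 4 and 5 without siFTO 6, beside 10.1%, 11.1%, 10.3% and 18.0% of all genes. Where the count was 0, 3 ISGs were lower at an unadjusted p under 0.05. Scaling by library totals alone raised the median over all genes to 0.13. There 21 ISGs were higher and 2 were lower, beside 27.3% higher and 11.9% lower of all genes tested.

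With siFTO 4 and 5 left out, 7 ISGs were still higher and none was lower. In this comparison of siFTO 6 alone with the 3 controls, which assumes that the lone library varies as the controls do, the higher genes were IFI27, IFI6, PLSCR1, SAMD9, BST2, IFITM1 and PARP9. All 7 are among the 17 of the full comparison. At an unadjusted p under 0.05 edgeR gave 15 higher and 1 lower among the 40 ISGs tested. Over all genes 6.17% of 15713 were higher and 5.89% were lower in the same comparison.

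**Figure D2:**
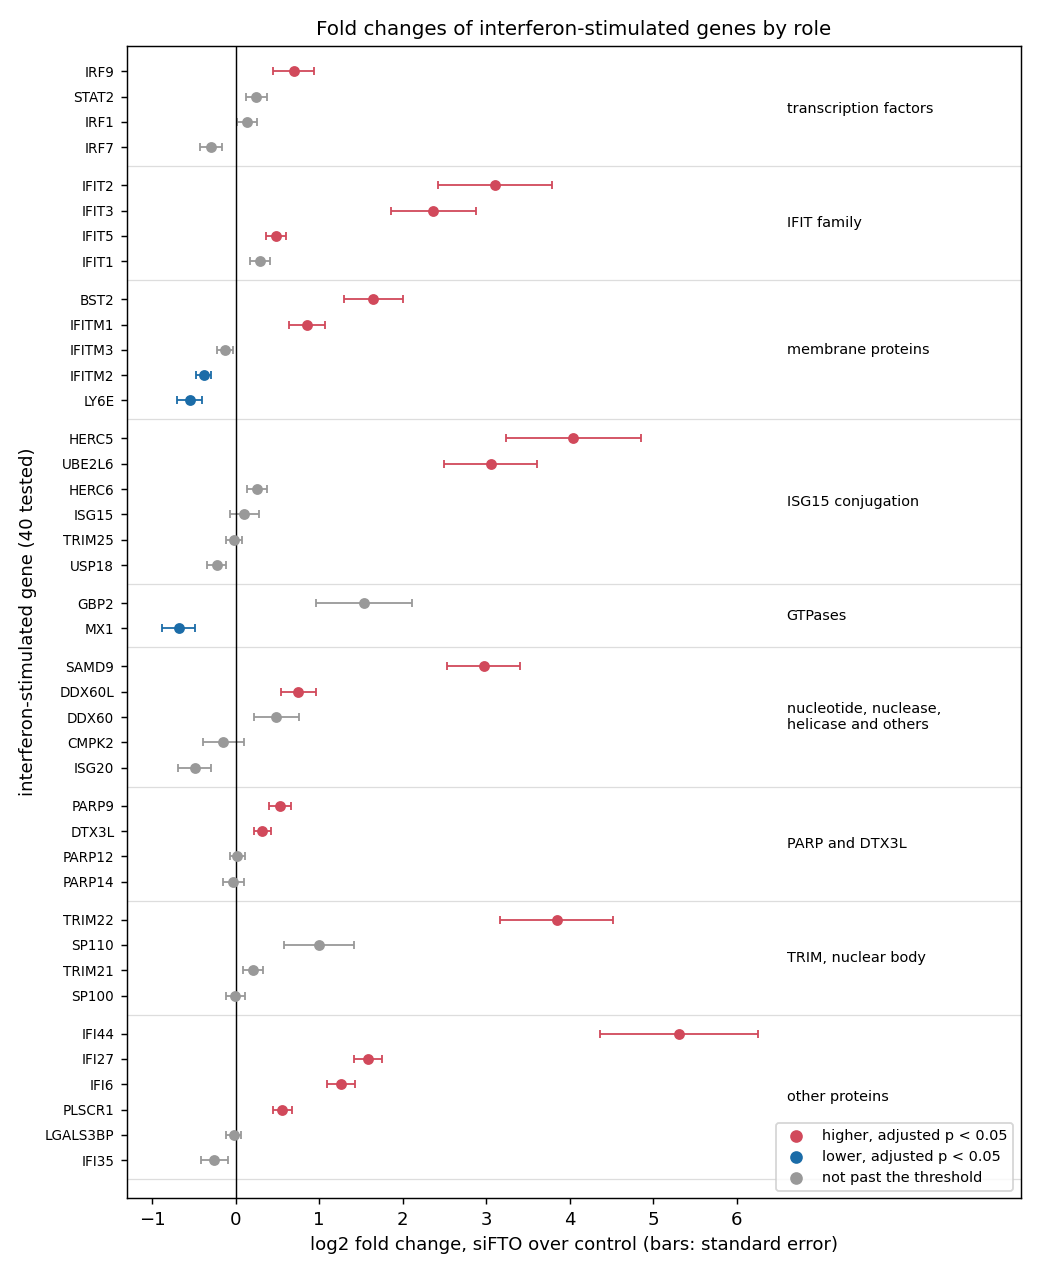
Log2 fold changes (siFTO over control, horizontal axis) of the 40 ISGs tested, grouped by role, with bars for the standard error (3 libraries per group). Red points were higher and blue points lower at an adjusted p under 0.05 by edgeR, and grey points did not pass. The widest bars belong to IFI44, HERC5, IFIT2 and TRIM22, whose values differed between siFTO 6 and the other siFTO libraries.

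Among the transcription factors of the pathway only IRF9 passed the test, and narrowly. IRF9, the DNA-binding part of ISGF3, had 2.97, 2.98 and 3.79 CPM in siFTO 4, 5 and 6 and 1.77, 1.61 and 2.53 CPM in control 1, 2 and 3. All 3 siFTO libraries were above every control, as in 25.8% of all genes tested. Its log2 fold change was 0.70 (SE 0.25, adjusted p = 0.0497 by edgeR). The call was lost when any library was left out, with adjusted p between 0.0531 without control 3 and 0.169 without control 1. With all 6 libraries it was lost with DESeq2 (adjusted p = 0.111), limma voom (0.0524) and no filter on low counts (0.148). It was also lost with DESeq2-type (0.0505) or upper-quartile scaling (0.0565), and was kept in 3 of the 15 alternatives. STAT2, which carries the activation domain of ISGF3, did not pass (log2 fold change 0.25, adjusted p = 0.150 by edgeR), with siFTO 4 and 5 above every control and siFTO 6 within their range. It passed without siFTO 6 (adjusted p = 0.0374). IRF1, a factor induced through the GAS, had 18.0, 15.5 and 14.9 CPM in siFTO 4, 5 and 6 and 14.6, 14.5 and 15.1 CPM in control 1, 2 and 3. IRF7, the factor that amplifies interferon production, did not pass either (log2 fold change -0.29, adjusted p = 0.107 by edgeR), and its p was 0.0336 without siFTO 6.

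The IFIT family, cytoplasmic proteins that bind viral RNA, had 3 of its 4 members higher and all 4 above every control in each siFTO library. Over all genes tested 19.5% were higher, and 25.8% had all 3 siFTO libraries above every control. IFIT2 had 10.5, 10.8 and 1.09 CPM in siFTO 4, 5 and 6 and 0.930, 0.670 and 0.982 CPM in control 1, 2 and 3. Its log2 fold change of 3.11 (SE 0.68, adjusted p = 0.00655 by edgeR) came with siFTO 6 just above the highest control. IFIT3, which stabilises IFIT1 on RNA, had 8.91, 8.27 and 1.75 CPM in siFTO 4, 5 and 6 and 1.12, 1.34 and 1.19 CPM in control 1, 2 and 3, a log2 fold change of 2.37 (SE 0.51, adjusted p = 0.00584 by edgeR). In siFTO 6 alone the log2 fold changes were 0.34 for IFIT2 (adjusted p = 0.711) and 0.52 for IFIT3 (adjusted p = 0.460). Without siFTO 6 they were 3.60 and 2.79. Both calls were also lost without control 1, 2 or 3, where the adjusted p lay between 0.0630 and 0.0780 for IFIT2 and between 0.0615 and 0.0637 for IFIT3. With limma voom on all 6 libraries the adjusted p was 0.0852 for IFIT2 and 0.0437 for IFIT3.

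Of the other IFIT genes IFIT5 was higher and IFIT1 did not pass. IFIT5 had 16.3, 16.3 and 17.6 CPM in siFTO 4, 5 and 6 and 12.4, 10.8 and 12.6 CPM in control 1, 2 and 3. That is a log2 fold change of 0.49 (SE 0.12, adjusted p = 0.0114 by edgeR), with siFTO 6 the highest of the 3 siFTO libraries and an adjusted p of 0.0594 in siFTO 6 alone. With offsets for gene length and GC content it was 0.31 (adjusted p = 0.0581). IFIT1, which recognises RNA that lacks cap methylation, had 19.8, 18.1 and 22.2 CPM in siFTO 4, 5 and 6 and 17.8, 15.3 and 15.9 CPM in control 1, 2 and 3. Its siFTO libraries were all above every control, as in 25.8% of all genes tested. It did not pass (log2 fold change 0.30, adjusted p = 0.0755 by edgeR).

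Genes of membrane proteins that restrict viruses moved in both directions, with 2 of 5 higher and 2 lower. The shares over all genes tested were 19.5% higher and 17.9% lower. BST2 (tetherin), which holds budding virions at the cell surface, had 1.84, 1.87 and 3.14 CPM in siFTO 4, 5 and 6 and 0.651, 1.01 and 0.517 CPM in control 1, 2 and 3. Its log2 fold change was 1.65 (SE 0.35, adjusted p = 0.00583 by edgeR), and siFTO 6 was the highest library. Without control 1 the adjusted p was 0.0582 and without control 3 it was 0.0559. IFITM1, which blocks viral entry at the plasma membrane, had 10.5, 9.58 and 14.1 CPM in siFTO 4, 5 and 6 and 8.0, 4.76 and 6.20 CPM in control 1, 2 and 3. This is a log2 change of 0.86 (SE 0.22, adjusted p = 0.0119 by edgeR), and the adjusted p was 0.0788 without control 2 and 0.0793 without control 3.

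Of the relatives of IFITM1 that act in endosomes, IFITM2 was lower and IFITM3 did not pass. IFITM2 had 91.0, 97.6 and 107.7 CPM in siFTO 4, 5 and 6 and 122.7, 127.7 and 135.1 CPM in control 1, 2 and 3. It fell by 0.38 on the log2 scale (SE 0.089, adjusted p = 0.00863 by edgeR). The call was lost without control 3 (adjusted p = 0.0549), without siFTO 4 (0.0539), in siFTO 6 alone (0.245) and with offsets for gene length and GC content (0.482). IFITM3 had 176.9, 183.4 and 213.7 CPM in siFTO 4, 5 and 6 and 201.4, 205.8 and 219.8 CPM in control 1, 2 and 3, and did not pass (adjusted p = 0.305 by edgeR). The 3 IFITM genes are similar in sequence. Reads may therefore have been split between them in a way that cannot be checked from the counts. LY6E, a lipid-anchored surface protein that restricts coronaviruses, had 108.1, 147.7 and 155.9 CPM in siFTO 4, 5 and 6 and 169.0, 236.1 and 196.8 CPM in control 1, 2 and 3. That gives a log2 change of -0.55 (SE 0.15, adjusted p = 0.0177 by edgeR). Its adjusted p was 0.113 without control 2, 0.0868 without control 3, 0.0715 without siFTO 4, 0.182 in siFTO 6 alone and 0.162 with the length and GC offsets.

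In the ISG15 system 2 of 6 genes were higher, beside 19.5% of all genes tested. These were the enzymes UBE2L6 and HERC5, whereas ISG15 itself did not pass the test. UBE2L6, the conjugating enzyme (E2) for ISG15, had 23.5, 25.3 and 4.01 CPM in siFTO 4, 5 and 6 and 2.33, 1.94 and 2.12 CPM in control 1, 2 and 3. All 3 siFTO libraries were above every control, siFTO 6 by far less than the others, and the log2 fold change was 3.06 (SE 0.56, adjusted p = 0.00299 by edgeR). HERC5, the main ISG15 ligase (E3), had 5.38, 7.03 and 0.802 CPM in siFTO 4, 5 and 6 and 0, 0.268 and 0.413 CPM in control 1, 2 and 3, a log2 fold change of 4.05 (SE 0.81, adjusted p = 0.00432 by edgeR). On siFTO 6 alone the log2 fold change of UBE2L6 was 0.92 (adjusted p = 0.0759) and that of HERC5 was 1.59 (adjusted p = 0.228), and without control 2 the adjusted p of HERC5 was 0.0631. The modifier ISG15 had 50.9, 61.6 and 63.3 CPM in siFTO 4, 5 and 6 and 44.4, 72.9 and 45.9 CPM in control 1, 2 and 3. Control 2 was the highest of the 6 libraries, and the log2 fold change was 0.11 (SE 0.18, adjusted p = 0.661 by edgeR). With offsets for gene length and GC content it was 0.54 (adjusted p = 0.00550). USP18, the protease that removes ISG15 and damps the receptor, lay below every control in all 3 siFTO libraries without passing (log2 fold change -0.23, adjusted p = 0.151 by edgeR), while HERC6 and TRIM25 had log2 fold changes of 0.26 and -0.015.

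Of the 4 interferon-induced GTPases 2 could be tested, and MX1 was lower. MX1, which traps incoming viral nucleocapsids, had 3.18, 2.67 and 3.14 CPM in siFTO 4, 5 and 6 and 5.58, 4.35 and 4.55 CPM in control 1, 2 and 3. The 3 siFTO libraries were alike and below every control, and the log2 fold change was -0.68 (SE 0.20, adjusted p = 0.0225 by edgeR). Leaving out siFTO 6 kept this call, and leaving out any other library lost it, with adjusted p between 0.0562 without control 2 and 0.0990 without control 1. In siFTO 6 alone the adjusted p was 0.195 and on library totals alone it was 0.0521. GBP2, a guanylate-binding protein, had 3.47, 3.23 and 0.437 CPM in siFTO 4, 5 and 6 and 0.930, 0.670 and 0.878 CPM in control 1, 2 and 3. Here siFTO 4 and 5 were above every control and siFTO 6 below every control. GBP2 did not pass (log2 fold change 1.54, SE 0.58, adjusted p = 0.0581 by edgeR), and without siFTO 6 its log2 fold change was 2.0 (adjusted p = 5.87e-05).

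Of the 8 ISGs of nucleotide, nuclease, helicase and related functions 5 were tested and 2 were higher, beside 19.5% of all genes tested. SAMD9, a cytoplasmic protein that restricts poxviruses, had 4.03, 6.40 and 2.33 CPM in siFTO 4, 5 and 6 and 0.837, 0.335 and 0.517 CPM in control 1, 2 and 3. The lowest siFTO library was well above the highest control, and the log2 fold change was 2.97 (SE 0.44, adjusted p = 0.00130 by edgeR), or 2.10 in siFTO 6 alone (adjusted p = 0.0203). DDX60L, a DExD/H-box helicase, had 8.49, 7.96 and 6.42 CPM in siFTO 4, 5 and 6 and 4.65, 5.49 and 3.51 CPM in control 1, 2 and 3, a log2 fold change of 0.75 (SE 0.21, adjusted p = 0.0177 by edgeR). Its call was lost without control 1 (adjusted p = 0.0848), control 3 (0.0896), siFTO 4 (0.0798) or siFTO 5 (0.0506), in siFTO 6 alone (0.248) and with the length and GC offsets (0.158). The helicase DDX60, the nucleotide kinase CMPK2 and the exonuclease ISG20 did not pass, with log2 fold changes of 0.49, -0.15 and -0.49. ISG20 was lower at an adjusted p of 0.0430 without siFTO 6 and of 0.0260 without control 3.

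PARP9 and DTX3L, which form a complex of an ADP-ribosyltransferase and a ubiquitin ligase, were both higher by a small amount. PARP9 had 23.1, 21.8 and 25.9 CPM in siFTO 4, 5 and 6 and 15.5, 14.3 and 18.9 CPM in control 1, 2 and 3, a log2 fold change of 0.53 (SE 0.13, adjusted p = 0.0109 by edgeR). DTX3L had 40.3, 35.4 and 38.9 CPM in siFTO 4, 5 and 6 and 33.0, 27.7 and 31.3 CPM in control 1, 2 and 3, a log2 fold change of 0.32 (SE 0.10, adjusted p = 0.0329 by edgeR). No siFTO library of either gene overlapped the controls. In 25.8% of all genes tested all 3 siFTO libraries were likewise above every control. The call of PARP9 was lost without control 1 (adjusted p = 0.0682) or control 2 (0.0560). That of DTX3L was, with 1 library left out, kept only without siFTO 5, and the adjusted p was 0.0591 without control 1, 0.0849 without control 2, 0.0768 without control 3, 0.132 without siFTO 4 and 0.0601 without siFTO 6. With offsets for gene length and GC content the adjusted p was 0.180 for PARP9 and 0.669 for DTX3L. PARP12 and PARP14, from the same enzyme family, had log2 fold changes of 0.021 and -0.026 and did not pass. With those offsets PARP14 was at -0.37 (adjusted p = 0.0192).

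Of the 4 TRIM and nuclear body genes TRIM22 was higher, beside 19.5% of all genes tested. TRIM22, a ubiquitin ligase that restricts retroviruses, had 7.36, 6.28 and 1.09 CPM in siFTO 4, 5 and 6 and 0.372, 0.402 and 0.258 CPM in control 1, 2 and 3. All 3 siFTO libraries lay above the controls, with siFTO 6 nearest to them, and the log2 fold change was 3.85 (SE 0.67, adjusted p = 0.00246 by edgeR). With siFTO 6 alone it was 1.68 (adjusted p = 0.0999). SP110, a nuclear body protein, had 1.49, 0.995 and 0.802 CPM in siFTO 4, 5 and 6 and 0.651, 0.737 and 0.310 CPM in control 1, 2 and 3, and did not pass (log2 fold change 1.0, adjusted p = 0.0815 by edgeR). Its adjusted p was 0.0450 without siFTO 6. The antibody receptor TRIM21 and the nuclear body protein SP100 had log2 fold changes of 0.21 and -0.0015.

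IFI27, IFI6 and PLSCR1 were higher in siFTO cells and passed in every alternative. SAMD9 passed wherever it was tested, but with 9, 5 and 10 reads in control 1, 2 and 3 it was not tested where every library needed at least 10 counts. IFI27, a small hydrophobic membrane protein, had 125.8, 145.8 and 180.6 CPM in siFTO 4, 5 and 6 and 48.1, 63.0 and 39.7 CPM in control 1, 2 and 3. That is a log2 difference of 1.59 (SE 0.17, adjusted p = 4.39e-04 by edgeR). IFI6, a relative of IFI27 that blocks flavivirus replication at the endoplasmic reticulum, had 101.7, 101.5 and 129.1 CPM in siFTO 4, 5 and 6 and 40.8, 59.1 and 38.4 CPM in control 1, 2 and 3, a log2 fold change of 1.26 (SE 0.16, adjusted p = 7.83e-04 by edgeR). PLSCR1, a lipid scramblase, had 24.8, 24.3 and 28.2 CPM in siFTO 4, 5 and 6 and 18.1, 15.5 and 18.8 CPM in control 1, 2 and 3, a log2 fold change of 0.56 (SE 0.12, adjusted p = 0.00513 by edgeR). In all 3 genes siFTO 6 was the highest library. In siFTO 6 alone the log2 fold changes were 1.85 for IFI27, 1.49 for IFI6 and 0.69 for PLSCR1, with adjusted p of 5.39e-05, 4.52e-04 and 0.0209 by edgeR.

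IFI44, an antiproliferative protein of the cytoplasm, had the largest fold change among the ISGs tested. It had 7.71, 8.52 and 0.729 CPM in siFTO 4, 5 and 6 and 0.279, 0.134 and 0.0517 CPM in control 1, 2 and 3, a log2 fold change of 5.31 (SE 0.95, adjusted p = 0.00266 by edgeR). The size of this change rests on 3, 2 and 1 reads in the controls and depends on how near-zero counts are handled. With siFTO 6 alone it was 2.36 (adjusted p = 0.0965). LGALS3BP, a secreted galectin-binding glycoprotein, had 537.8, 612.0 and 571.9 CPM in siFTO 4, 5 and 6 and 566.9, 630.3 and 552.5 CPM in control 1, 2 and 3. Its groups overlapped (log2 fold change -0.023, adjusted p = 0.855 by edgeR). IFI35, a leucine zipper protein, had a log2 fold change of -0.25 and did not pass.

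**Figure D3:**
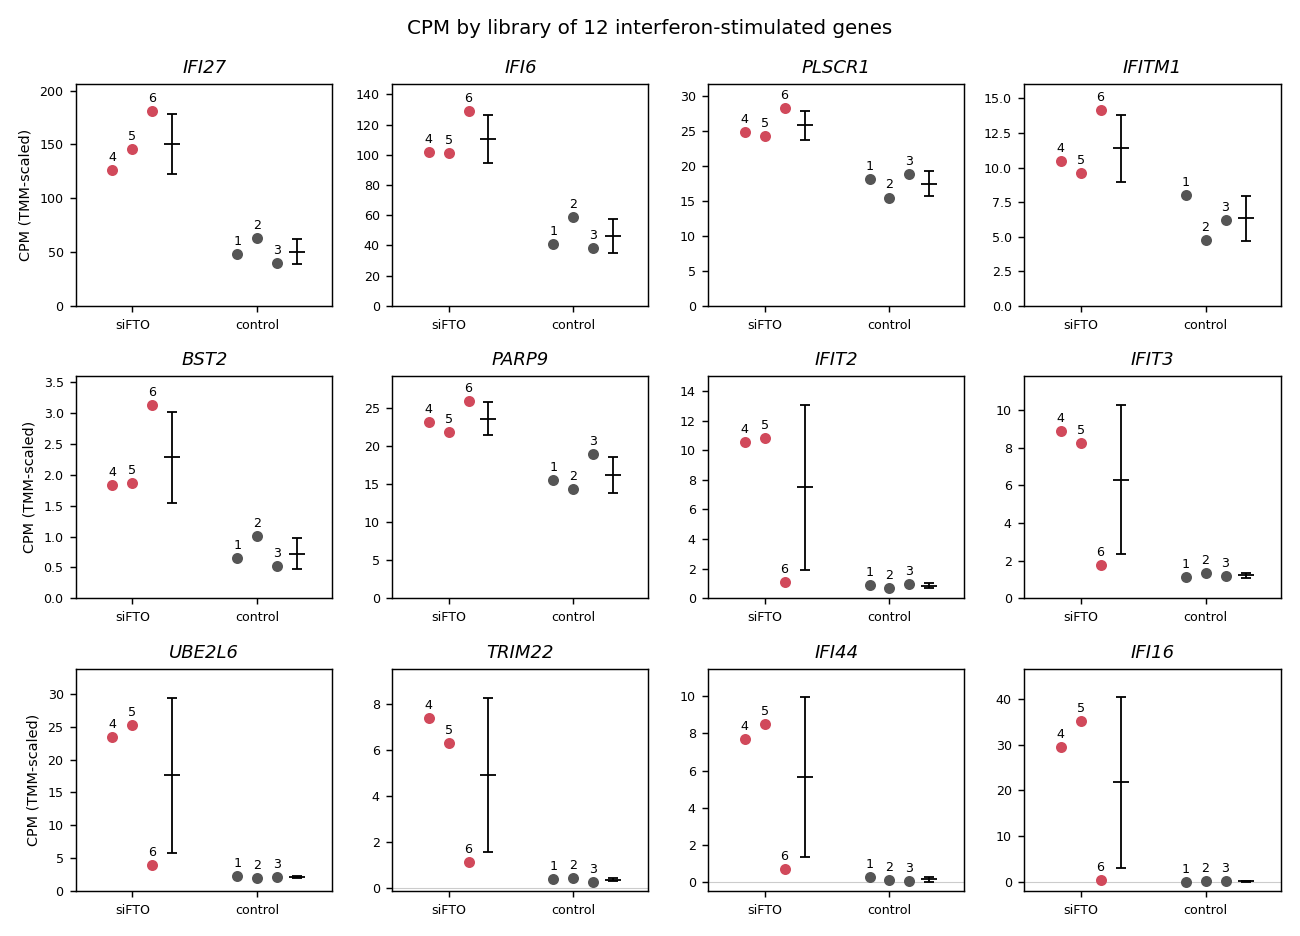
CPM (TMM-scaled, linear axis) of 12 ISGs in 3 siFTO libraries (red, replicates 4, 5 and 6) and 3 control libraries (grey, replicates 1, 2 and 3), with bars for the mean and SD of each group. In IFI27, IFI6, PLSCR1, IFITM1, BST2 and PARP9 siFTO 6 is the highest library. In IFIT2, IFIT3, UBE2L6, TRIM22, IFI44 and IFI16 it lies nearer to the controls than to siFTO 4 and 5 on this axis, yet above every control. For IFIT2 it is at 1.09 CPM where siFTO 4 and 5 are at 10.5 and 10.8 CPM.

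The 40 ISGs were sorted by their position against the range of the controls. In most of those that left this range siFTO 6 went with siFTO 4 and 5, as also held over all genes tested. There all 3 siFTO libraries were above every control in 3862 genes and below every control in 3825. Only siFTO 4 and 5 were above in 994 genes and below in 766. In 20 ISGs (50%) all 3 siFTO libraries were above every control, as in 25.8% of all genes tested, and in 4 (10%) all were below every control, as in 25.6% of all genes. The 20 were the 17 higher ISGs with IFIT1, HERC6 and SP110, and the 4 were MX1, IFITM2, LY6E and USP18. In 3 ISGs (7.5%), GBP2, STAT2 and IRF1, siFTO 4 and 5 were above every control and siFTO 6 was not, beside 6.64% of all genes. In 4 ISGs (10%), TRIM25, IFITM3, ISG20 and IRF7, siFTO 4 and 5 were below every control and siFTO 6 was not, beside 5.12% of all genes. For IFI35, PARP12 and TRIM21 siFTO 6 was outside the control range without siFTO 4 and 5 both on that side, and the other 6 ISGs had none of these patterns.

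Relative to siFTO 4 and 5, siFTO 6 was higher in some ISGs and far lower in others. Among the 17 higher ISGs siFTO 6 was the highest of the 3 siFTO libraries in 8 (47.1%), between the others in 1 and the lowest in 8 (47.1%), beside 31.2%, 19.1% and 49.7% of the 2913 higher genes overall. It was the highest for BST2, IFITM1, IFI27, IFI6, PLSCR1, PARP9, IRF9 and IFIT5. It was the lowest for HERC5, UBE2L6, SAMD9, DDX60L, IFI44, TRIM22, IFIT2 and IFIT3. In 8 ISGs the log2 CPM of siFTO 6 was more than 1 unit below the mean of siFTO 4 and 5, a limit chosen after the values were seen. These 8 are 20% of the ISGs tested, and 504 of all 14965 genes tested (3.37%) had such a gap. The 8 were GBP2, HERC5, UBE2L6, SAMD9, IFI44, TRIM22, IFIT2 and IFIT3, with gaps from -3.25 for IFI44 to -1.08 for SAMD9. The next gene, SP110, had a gap of -0.53, and the gaps of the other 32 ISGs reached up to 0.72 for BST2.

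The 8 ISGs with the wide gap had between 0 and 2.33 CPM in the controls. Relative to the controls their median was at 3.41 in siFTO 4, 3.48 in siFTO 5 and 1.12 in siFTO 6 on the log2 scale. For the other 10 higher ISGs the medians were 0.67, 0.61 and 0.81. Without siFTO 6 the log2 fold changes were 5.83 for IFI44, 4.50 for HERC5, 4.30 for TRIM22, 3.51 for UBE2L6 and 3.26 for SAMD9. The summed mesenchymal, fibroblast and leukocyte markers given above were likewise far higher in siFTO 4 and 5 than in siFTO 6. The part of these markers in the 8 ISGs was not tested. In bulk RNA fewer cells with a transcript and less transcript per cell cannot be told apart. The ISRE letters stood in 4 of the 5 wide-gap ISGs that had a promoter on hand, the exception being UBE2L6. They stood in 13 of the 15 higher ISGs with a promoter (all but UBE2L6 and IRF9), in 9 of 17 that did not pass, in 5 of 8 not tested and in MX1, the single lower ISG with a promoter.

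**Figure D4:**
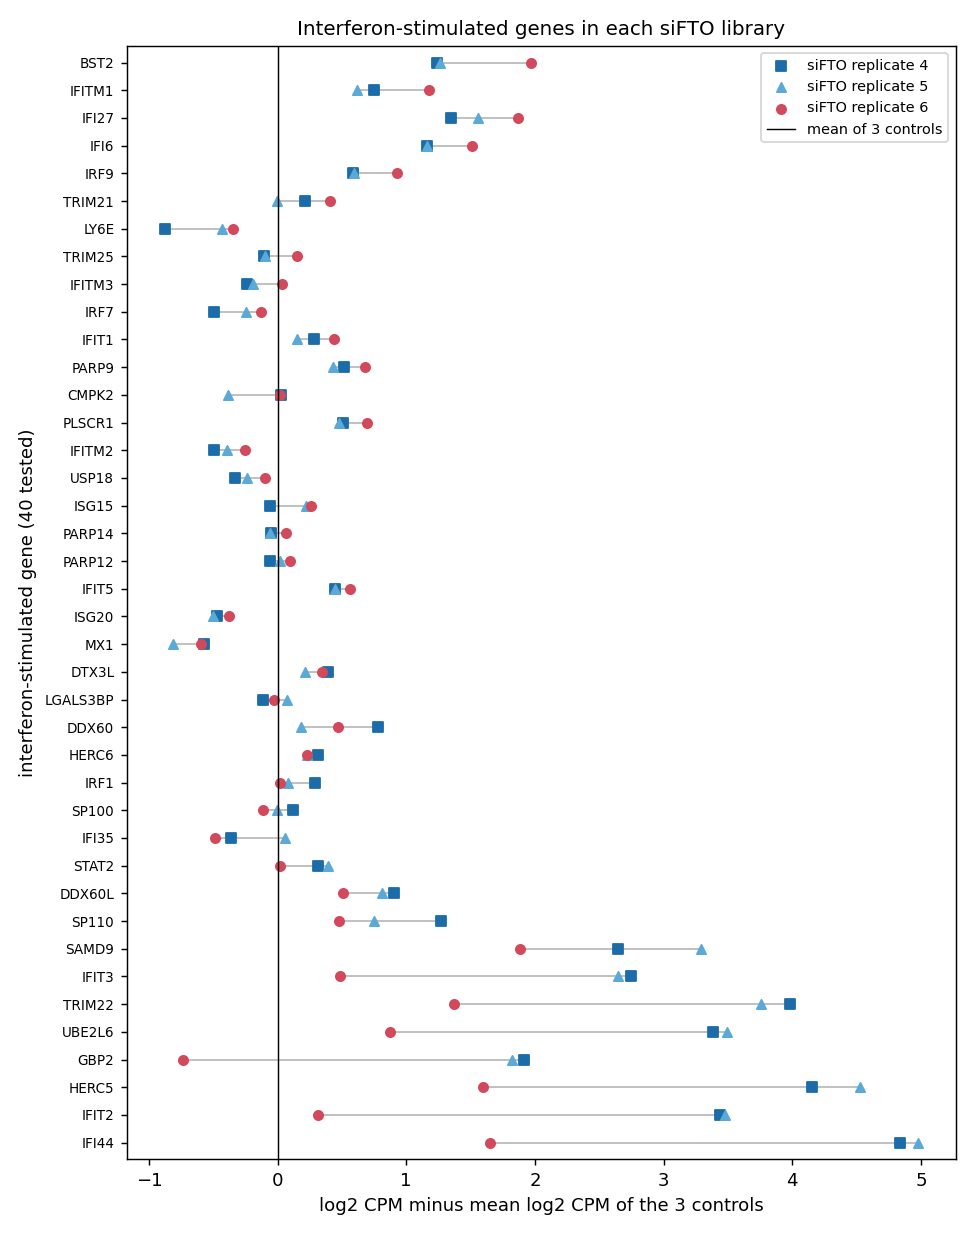
Log2 CPM of each siFTO library minus the mean of the 3 controls (horizontal axis, 0 marks the control mean) for the 40 ISGs tested, sorted from BST2, where siFTO 6 exceeds the mean of siFTO 4 and 5 most, to IFI44, where it is furthest below. Squares are siFTO 4, triangles siFTO 5 and circles siFTO 6. In the lowest 8 rows the circle lies more than 1 unit left of the mean of the other marks, and in GBP2 it falls left of the control mean.

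The 9 ISGs that the filter on counts left untested were close to silent in the controls. IFI16, a nuclear DNA sensor, had 418, 566 and 6 reads in siFTO 4, 5 and 6 and 0, 1 and 2 reads in control 1, 2 and 3. IFI44L, a relative of IFI44, had 38, 53 and 0 reads in siFTO 4, 5 and 6 and none in the controls, and a library with 0 reads allows up to 0.151 to 0.273 CPM (3 counts of its total, for counting error only). Its promoter holds a repeated stretch with the ISRE letters in each copy. GBP1, a guanylate-binding protein that attacks intracellular pathogens, had 50, 54 and 3 reads in siFTO 4, 5 and 6 and 1 read in each control. SAMD9L, the neighbour and relative of SAMD9, had 30, 39 and 1 reads in siFTO 4, 5 and 6 and 0, 1 and 0 reads in control 1, 2 and 3. In these 4 genes almost all reads came from siFTO 4 and 5.

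The remaining untested ISGs had few reads anywhere. MX2, a GTPase that restricts HIV, had 22, 17 and 5 reads in siFTO 4, 5 and 6 and 0, 2 and 3 reads in control 1, 2 and 3. RSAD2 (viperin), an enzyme that makes a chain-terminating nucleotide, had 6, 15 and 5 reads in siFTO 4, 5 and 6 and 2, 6 and 2 reads in control 1, 2 and 3. EPSTI1 had 6, 9 and 4 reads in siFTO 4, 5 and 6 and 1, 2 and 2 reads in control 1, 2 and 3. XAF1 and RTP4 reached no more than 2 reads in any library, so a difference was not detectable at this depth. These 9 genes failed the filter because fewer than 3 libraries had enough reads. When genes with low counts were kept in the fit, 22 of 49 ISGs were higher and 2 were lower, beside 12.1% higher and 7.57% lower of the 30886 genes in that fit.

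Upstream of the ISGs, interferon genes themselves were hardly detected. Of 21 ligand genes 16 had 0 reads in all 6 libraries and none could be tested. The highest count was 8 reads, of the type III interferon IFNL1 in siFTO 5, which had 1 read in siFTO 4, 0 in siFTO 6 and 0 in each control. IFNB1 had 1 read in siFTO 5 alone.

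Among the 9 receptor and kinase genes 3 were higher and 1 was lower, and in siFTO 6 alone none passed (2 higher and 1 lower at an unadjusted p under 0.05 by edgeR). JAK1 had 88.2, 91.2 and 75.6 CPM in siFTO 4, 5 and 6 and 68.1, 51.8 and 55.5 CPM in control 1, 2 and 3, a log2 fold change of 0.54 (adjusted p = 0.00632 by edgeR, 0.0560 without control 3 and 0.136 in siFTO 6 alone). JAK2 had 6.16, 5.60 and 2.92 CPM in siFTO 4, 5 and 6 and 3.26, 2.01 and 2.27 CPM in control 1, 2 and 3. Its siFTO 6 value lay within the control range, its adjusted p was 0.0276, and every library left out other than siFTO 6 ended the call, with adjusted p between 0.0681 without control 1 and 0.154 without control 2. JAK2 was at 0.25 in siFTO 6 alone (adjusted p = 0.687), and with the length and GC offsets the adjusted p was 0.0716. The list also held IFNLR1, the higher receptor subunit for type III interferon, and IFNGR2, the lower one for type II interferon. The call of IFNLR1 was lost when any library was left out (adjusted p 0.0557 without control 1 to 0.113 without siFTO 6) and with the length and GC offsets (0.144). Over all genes tested, beside this list and the next, 19.5% were higher and 17.9% were lower. Of 6 inhibitors of the pathway the phosphatase PTPN11 was higher and the phosphatases PTPN2 and PTPN6 were lower. PTPN11 was at 0.19 with those offsets (adjusted p = 0.0921) and had an adjusted p of 0.0636 in siFTO 6 alone. On library totals alone the adjusted p was 0.0996 for PTPN2 and 0.109 for PTPN6, and in siFTO 6 alone it was 0.205 and 0.422. PTPN2 was also lost without control 3 (0.0632) or siFTO 5 (0.0538), and PTPN6 without any library other than siFTO 6 (0.0580 without control 3 to 0.121 without siFTO 4) and with the offsets (0.148).

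Of 19 genes of nucleic acid sensing and interferon induction 17 were tested. Of these 8 were higher and 2 lower, beside 19.5% higher and 17.9% lower of all genes tested. In siFTO 6 alone 4 were higher (IFIH1, OAS1, OAS3 and OASL) and none was lower, with 1 lower at an unadjusted p under 0.05 by edgeR. With the length and GC offsets 5 were higher and 2 lower, and RIGI, TLR3, OAS3, EIF2AK2 and STING1 lost their calls. OASL, which enhances sensing of viral RNA, had 19.5, 22.6 and 19.5 CPM in siFTO 4, 5 and 6 and 9.77, 11.1 and 6.36 CPM in control 1, 2 and 3, a log2 fold change of 1.19 (adjusted p = 0.00162 by edgeR, 0.0128 in siFTO 6 alone). DHX58 (LGP2), an RNA helicase of the RIG-I family, had 2.69, 2.55 and 0.292 CPM in siFTO 4, 5 and 6 and 0.744, 0.536 and 0.103 CPM in control 1, 2 and 3. Its log2 fold change was 2.15 (adjusted p = 0.0432 by edgeR), but siFTO 6 lay within the control range, and the value was -0.49 in siFTO 6 alone. The adjusted p without 1 of control 1, 2 or 3 or siFTO 4 was 0.122 to 0.230. With all 6 libraries it was 0.140 with limma voom and 0.0164 with DESeq2. TLR3, the sensor of double-stranded RNA in endosomes, had 4.39, 3.17 and 4.16 CPM in siFTO 4, 5 and 6 and 3.07, 2.08 and 2.22 CPM in control 1, 2 and 3. All 3 siFTO libraries were above every control, as in 25.8% of all genes tested. The call (adjusted p = 0.0445 by edgeR) was, among the fits that left out 1 library, kept only without siFTO 5. It was lost without control 1 (0.0661), control 2 (0.166), control 3 (0.165), siFTO 4 (0.162) or siFTO 6 (0.0644). It was also lost with upper-quartile scaling (0.0531), with no filter on low counts (0.139), with DESeq2 (0.0875), with the length and GC offsets (0.203) and in siFTO 6 alone (0.125).

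Genes of antigen presentation by MHC class I, many of them also induced by interferon, had 2 of 12 higher and 5 lower. Over all genes tested 19.5% were higher and 17.9% were lower. HLA-B, HLA-C and HLA-F did not pass on library totals alone (adjusted p 0.0784 to 0.122), which gave 3 higher and 2 lower, or with the length and GC offsets (0.194 to 0.548), which gave 3 higher and 3 lower. With siFTO 6 alone none of the 12 passed (0 higher and 4 lower at an unadjusted p under 0.05 by edgeR). B2M, the light chain of MHC class I, had 363.8, 393.5 and 108.2 CPM in siFTO 4, 5 and 6 and 136.4, 157.5 and 123.6 CPM in control 1, 2 and 3. The fitted log2 change was 1.05 (adjusted p = 0.0410 by edgeR), and siFTO 6 was below every control at -0.36 on its own. The call was lost when any library other than siFTO 6 was left out (adjusted p 0.136 to 0.196). It was also lost with DESeq2 (adjusted p = 0.124) and limma voom (0.126). NLRC5, the transactivator of MHC class I genes, had 19.3, 21.1 and 15.8 CPM in siFTO 4, 5 and 6 and 14.2, 11.4 and 13.7 CPM in control 1, 2 and 3, a log2 fold change of 0.52 (adjusted p = 0.0177 by edgeR). Among the fits that left out 1 library its call was kept only without siFTO 6, with adjusted p of 0.0587 to 0.0806 when another library was left out and 0.362 in siFTO 6 alone. Counts of HLA genes depend on the alleles of the cell line and on reads shared between these similar genes.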

How the data were processed

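RNA-seq libraries of 253J cells were grouped by their labels into 3 siFTO and 3 control samples. The authors deposited counts of reads per gene, without normalization. Their processing notes name the tools TopHat2 2.0.11 and HTSeq with builds hg19 and GRCh37. Annotation release and strand setting were not given in the sources used here, so reads of overlapping or antisense genes cannot be told apart. Of 60483 gene IDs 56321 (93.1%) matched a symbol. Genes with low counts were removed (filterByExpr of edgeR, minimum count 10, minimum total 15), libraries were scaled by TMM, and edgeR 4.0.16 (R 4.3.3) fitted its quasi-likelihood test with the group as the only term. Two-sided p-values were corrected by Benjamini and Hochberg's method for all 14965 genes tested (threshold 0.05). The standard error was the size of the log2 fold change divided by the square root of F. Log2 CPM used a prior count of 2, and CPM of cell type markers used library totals. Test scripts were tested on simulated data. Replicates of a group differed by more than sampling noise (chi-square per degree of freedom 3.79 to 20.6), so none was counted as a repeat deposit. The 15 alternatives covered scaling, filters, DESeq2 1.42.0, limma 3.58.1 voom, left-out libraries, siFTO 6 alone, and offsets for gene length and GC content from GENCODE annotation. Named ISGs were up to 4 per role group by fold change, and up to 3 of each other list, and not all are printed. The ISGs and the other lists were chosen with earlier results of these data known. Some genes are not reported here. No m6A-seq data were used here.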

Additional observations from a re-analysis of the deposited data

How the results depend on the processing

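The number of higher ISGs (17) was 12 to 22 under the 8 alternatives of scaling, filter, test tool and offsets. These tested 33 to 49 ISGs. The number of lower ISGs (3) was 2 to 3, though with the length and GC offsets only 1 of the 3 was shared (MX1). Over all genes in these 8 fits 12.1% to 27.3% were higher and 7.57% to 19.5% were lower. Leaving out 1 library at a time gave 10 to 23 higher and 0 to 5 lower, of 40 to 45 ISGs tested. Beside these, 8.55% to 23.6% of all genes were higher and 9.96% to 18.0% were lower. In siFTO 6 alone 7 were higher and 0 were lower (15 and 1 at an unadjusted p under 0.05 from edgeR). There DHX58 was at -0.49 and B2M at -0.36. IFI27, IFI6, PLSCR1 and SAMD9 were higher in every alternative that tested them. SAMD9 was not tested where at least 10 counts were required in every library. DDX60L, DTX3L, IRF9, IFIT2, MX1 and LY6E lost their calls in 5 or more. The cause was not tested, but left-out libraries also leave fewer samples. No paired analysis was possible because the groups share no replicate numbers. The 9 ISGs not tested had under 10 counts in at least 4 libraries, and for XAF1 and RTP4, with at most 2 counts in any library, a difference was not detectable at this depth.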
